A study of Mus musculus with 18 samples.

Results

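SR proteins (genes named Srsf) and hnRNP proteins (genes named Hnrnp) were described in mouse CD8+ T cells. The group was formed by name: it took every protein-coding row of the count table whose GENCODE M21 symbol starts with Srsf or Hnrnp. That gave 31 genes, 11 Srsf and 20 Hnrnp, of 55487 rows, of which 21897 were protein-coding. All 31 passed the filter on low counts that left 13150 genes for testing. The cells came from spleen and lymph nodes of wild-type C57BL/6J mice and had been sorted on 41BB (CD137), a costimulatory receptor of activated T cells encoded by Tnfrsf9. The 41BB+ cells are called Tpam by the submitters and the 41BB- cells conventional. RNA was taken straight after the sort with no activation (0 h), or following 24 or 72 h in culture on beads that engage CD3 and CD28, the T cell receptor complex and its costimulator. Each of the 6 groups had 3 libraries, described as biological triplicates and numbered by experiment 1 to 3. The age and sex of the mice, and whether a library came from 1 mouse or a pool, are not stated by the labels used here. The sort was made once, before culture, so 41BB+ and 41BB- name the starting population at every time.

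SR proteins carry RNA recognition motifs and a tail rich in serine-arginine dipeptides. They bind enhancer sequences in exons and help the U1 snRNP and U2AF to define splice sites, and their activity and location depend on phosphorylation of the tail. The hnRNP proteins coat nascent transcripts and often make the spliceosome skip an exon. Both families also take part in mRNA export, stability and translation, and many of their own transcripts carry an exon or intron whose inclusion sends the mRNA to nonsense-mediated decay. In T cells the best known target is CD45 (Ptprc), whose variable exons are skipped after activation, with hnRNP L and hnRNP LL as regulators.

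The libraries held 3085241 to 4239795 counts each. Levels are given as CPM, counts per 1000000 counts of the library, and differences as log2 fold changes with TMM scaling ± standard error, so a ratio of CPM can differ a little from the fold change. A positive value means higher in 41BB+ cells or at the later time. Every adjusted p is from edgeR's quasi-likelihood test with Benjamini-Hochberg adjustment over all 13150 genes, with a threshold of 0.05, unless another tool is named. At 0 h the level of Tnfrsf9 was 389 ± 27.5 CPM after the 41BB+ sort and 6.74 ± 1.75 CPM after the 41BB- sort (SD, n = 3). At 72 h it was 21.2 ± 11.4 and 52.4 ± 8.68 CPM. CD8 T cell genes (Cd8a, Cd8b1, Cd3d, Cd3e, Cd3g and Cd247) were all detected, and at 0 h their summed level was 1901 to 2088 CPM in 41BB+ and 3109 to 3344 CPM in 41BB- libraries. In bulk libraries, fewer cells that express a gene and less of its RNA per cell cannot be told apart. A CPM is also a share of the library, so a change in total RNA per cell is not seen.

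The 31 genes together took a share of the counts that rose and fell with time, and the populations changed places. At 0 h the share was 1.02%, 1.01% and 0.952% in the 41BB+ libraries and 0.586%, 0.581% and 0.555% in the 41BB- libraries. At 24 h it was 1.34%, 1.32% and 1.32% against 1.26%, 1.28% and 1.24%. At 72 h it was 0.655%, 0.622% and 0.552% against 0.878%, 0.842% and 0.841%. The 41BB+ libraries thus lay above the 41BB- libraries at 0 h, a little above at 24 h and below at 72 h, with no overlap at any of the times. Within experiments 1, 2 and 3 the log2 ratio of 41BB+ to 41BB- was 0.80, 0.80 and 0.78 at 0 h, 0.09, 0.05 and 0.09 at 24 h, and -0.42, -0.44 and -0.61 at 72 h. In 41BB+ cells the mean share at 72 h was 0.613 times that at 0 h, and in 41BB- cells it was 1.49 times that at 0 h. Counts of the Hnrnp genes made up most of the total, at 0.443% to 1.04% of the library as group means, and those of the Srsf genes 0.122% to 0.285%.

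**Figure D1:**
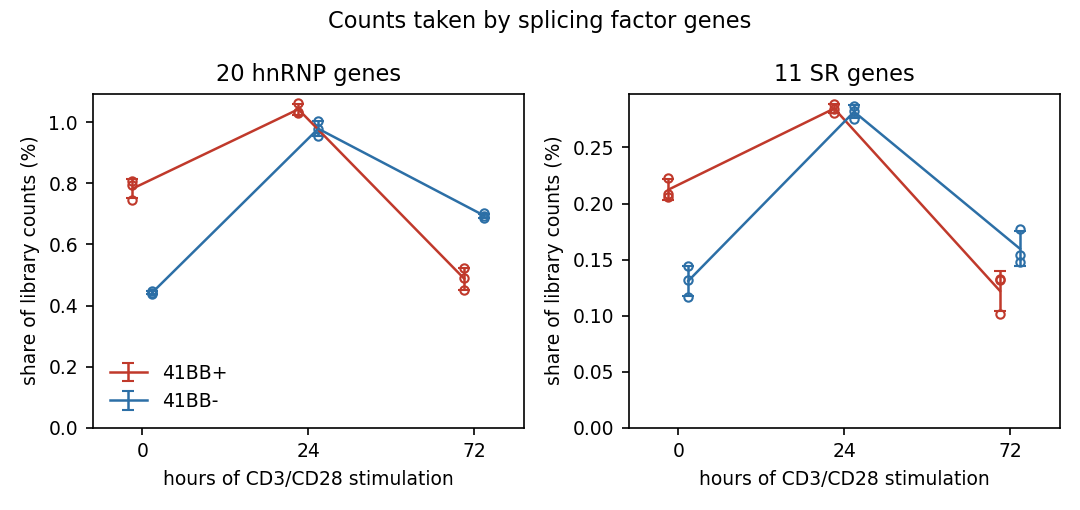
Share of all library counts (%) taken by the 20 Hnrnp genes (left) and the 11 Srsf genes (right) against hours of stimulation. Circles are libraries, lines join group means and bars are the SD of 3 libraries; the 41BB+ line starts above the 41BB- line at 0 h, both lines meet near 24 h and the 41BB+ line ends below at 72 h.

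At 0 h the comparison of the sorted populations asks how they differ before stimulation. Of the 31 genes, 20 were higher and 2 lower in 41BB+ cells, with a median log2 fold change of 0.68. Over all 13150 genes 39.5% passed the test, 22.2% higher and 17.3% lower, with a median of 0.01. The libraries of the groups did not overlap for 23 of the 31 genes and for 49.9% of all genes. The genes higher in 41BB+ cells came from both families, 8 of 11 Srsf and 12 of 20 Hnrnp. The steepest were Hnrnpab, which codes for an hnRNP of the A/B type, Srsf1, the founding SR protein, and Srsf2, an SR protein kept in the nucleus. Hnrnpu, a chromatin-associated hnRNP, stood at 1299, 1293 and 1229.8 CPM in 41BB+ and 527, 565 and 576 CPM in 41BB- libraries, a log2 fold change of 1.18 ± 0.09 (adjusted p = 2.3e-11). Next came Srsf9 at 1.18 ± 0.18, Hnrnpd at 1.13 ± 0.10, a factor that also binds AU-rich mRNA decay elements, and Hnrnpa2b1 at 1.04 ± 0.09. The 2 lower genes were Hnrnpll and Srsf5. Hnrnpl, Hnrnph1, Hnrnph2, Hnrnph3, Hnrnpa3, Hnrnpul1, Hnrnpul2, Srsf4 and Srsf12 did not pass. Of the 22 calls, those of Srsf5 and of Srsf11 (log2 fold change 0.32 ± 0.12, adjusted p = 0.0317) were lost on leaving out 1 library. For Srsf11 the adjusted p was 0.129 or 0.0997 without 41BB+ library 1 or 3, 0.0938 or 0.121 without 41BB- library 2 or 3, and 0.0568 by DESeq2. Malat1, a nuclear noncoding RNA, took 0.339% to 0.406% of the counts in 41BB+ and 0.625% to 0.838% in 41BB- libraries at 0 h, and the summed level of the 6 CD8 T cell genes was lower in 41BB+ libraries, as given above. Their part in the differences was not tested.

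At 24 h the same comparison called 0 of the 31 genes by edgeR, where 2.75% of all genes passed (1.67% higher and 1.07% lower). The libraries did not overlap for 7 of the 31 and for 20.5% of all genes. The members' median log2 fold change was 0.16, against 0.02 over all genes, and 27 of the 31 values were positive. At an unadjusted p below 0.05 there were 7, where 12.4% of all genes reached it: Hnrnpa0, Hnrnpab, Hnrnph1, Hnrnpk, Hnrnpl, Hnrnpu and Hnrnpul1, with log2 fold changes from 0.22 to 0.34. DESeq2 called 2 (Hnrnpl and Hnrnpu), and limma voom called 3 (Hnrnpab, Hnrnph1 and Hnrnpu). With the experiment number as a block within each time the same 3 passed (adjusted p = 0.038, 0.0202 and 0.0398), and also in a fit of only the compared groups. Over all genes, DESeq2 called 491 of 34551 and limma voom 550 of 13150. The block within time called 577 of 13150, and the fit of only the compared groups 483 of 11154.

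At 72 h, 21 of the 31 genes were lower in 41BB+ cells and 0 were higher, with a median log2 fold change of -0.42. Of all genes 18.9% passed, 12.2% lower and 6.71% higher, with a median of -0.04. The libraries did not overlap for 25 of the 31 and for 31.8% of all genes. The lower genes were 17 of 20 Hnrnp and 4 of 11 Srsf (Srsf1, Srsf2, Srsf3 and Srsf10). The difference between the families was not tested. Among the genes called, Hnrnpab, Srsf2 and Hnrnpa1, a shuttling hnRNP that often opposes SR proteins at exons, had the most negative log2 fold changes. Hnrnpu stood at 726.8, 726.5 and 599.8 CPM in 41BB+ and 1057, 990.0 and 1026 CPM in 41BB- libraries, a log2 fold change of -0.55 ± 0.09 (adjusted p = 6.17e-05). Of the 20 genes higher in 41BB+ cells at 0 h and the 21 lower at 72 h, 15 were common to both: Srsf1, Srsf2, Srsf3, Srsf10, Hnrnpa0, Hnrnpa1, Hnrnpa2b1, Hnrnpab, Hnrnpc, Hnrnpd, Hnrnpdl, Hnrnpk, Hnrnpm, Hnrnpr and Hnrnpu. Of all genes tested, 9.41% were in both counts. Only 9 of the 21 calls at 72 h held under every alternative tried: Hnrnpa1, Hnrnpa2b1, Hnrnpab, Hnrnpc, Hnrnpd, Hnrnpm, Hnrnpu, Srsf1 and Srsf2. The count was 12 without 41BB+ library 3, 12 without 41BB- library 1 and 12 in a fit of only the compared groups. Over all genes the count went from 2485 of 13150 to 1956 of 13758, 1970 of 13766 and 1791 of 11425 in these fits. Mitochondrial transcripts took 10.5% to 11.4% of the counts in 41BB+ and 8.84% to 9.56% in 41BB- libraries at 72 h. With mitochondrial and ribosomal protein genes taken out of the total, the 31 genes took 0.710% ± 0.05995 of the counts in 41BB+ and 0.975% ± 0.0277 in 41BB- libraries (SD, n = 3), and the test without those genes again called 21. The summed level of the 6 CD8 T cell genes was 2244 to 2682 CPM in 41BB+ and 1823 to 2224 CPM in 41BB- libraries, with 3 of the 6 higher in 41BB+ cells, and its part was not tested.

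**Figure D2:**
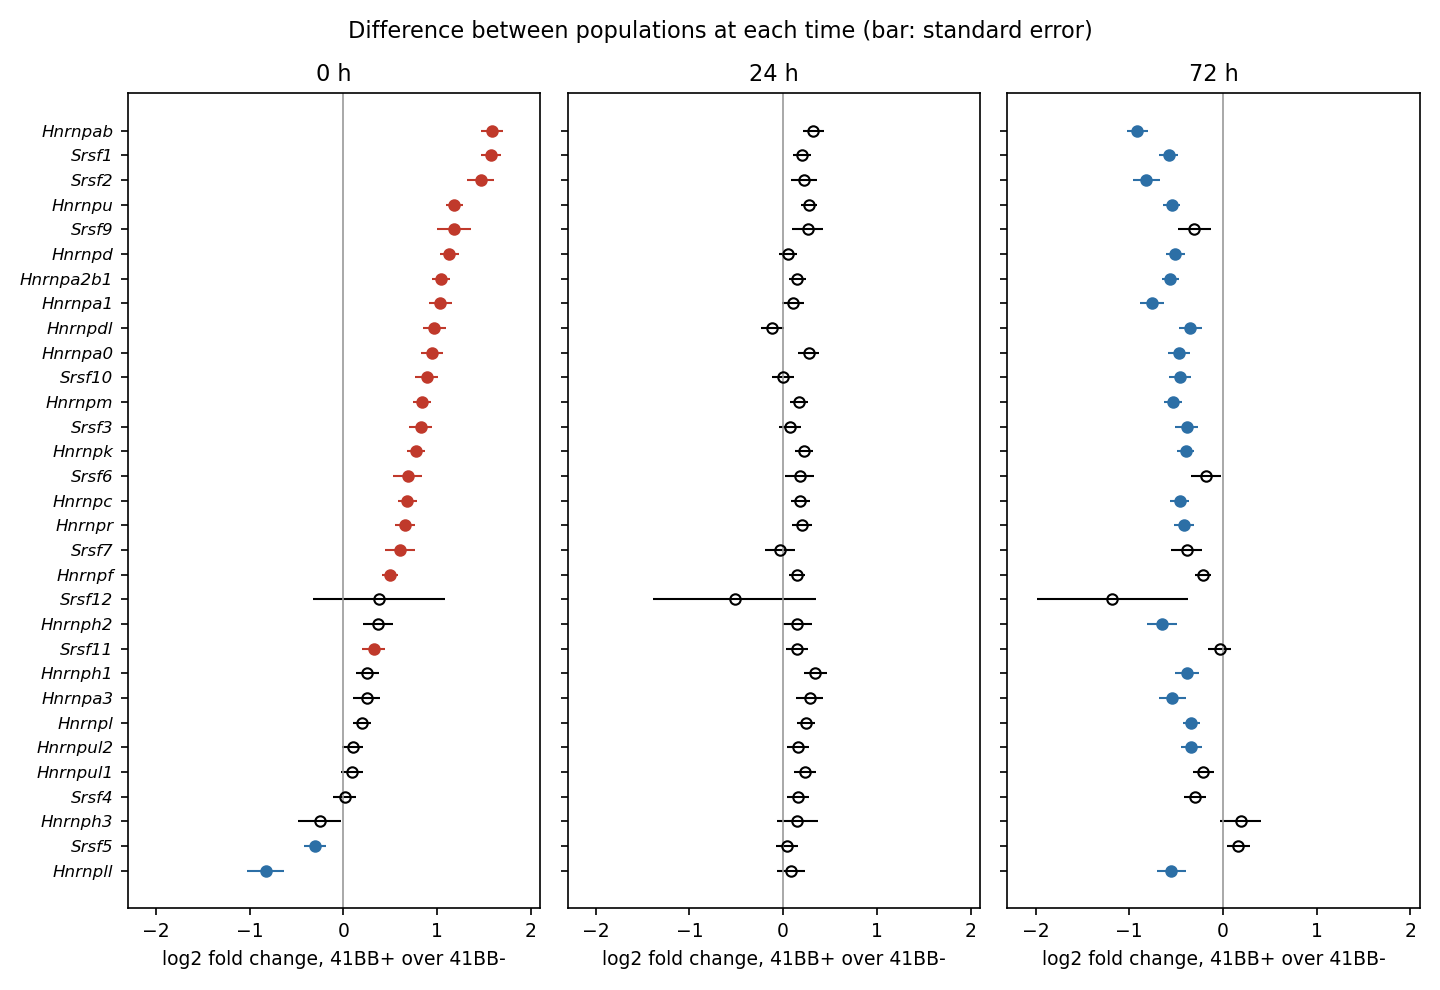
Log2 fold change of 41BB+ over 41BB- cells (x axis) for each of the 31 genes (rows, ordered by the value at 0 h) at 0, 24 and 72 h. Points are fitted values and bars their standard errors; filled red is higher and filled blue lower past the threshold, and open symbols did not pass. Most values lie right of 0 at 0 h, near 0 at 24 h and left of 0 at 72 h.

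After 24 h of stimulation in culture most members were higher in both populations. None of the groups was cultured without beads, so stimulation and time in culture cannot be told apart here or at 72 h. In 41BB- cells 26 of the 31 genes rose and 1, Srsf5, fell, with a median log2 fold change of 0.83, where 56.6% of all genes passed (29.0% up and 27.6% down) around a median of -0.07. In 41BB+ cells 20 rose and 2 passed in the other direction, with a median of 0.40, where 34.6% of all genes passed (18.1% up and 16.5% down) around a median of -0.06. The 2 were Srsf5 and Srsf12, and Srsf12, which met the low-count filter mainly through its 41BB+ libraries of 0 h, did not pass without the filter (adjusted p = 0.136). In both populations 18 genes rose, which were 18 of the 26 and 18 of the 20. The share of all genes that rose in both was not counted and cannot exceed the 18.1% that rose in 41BB+ cells. The libraries of 0 h and 24 h did not overlap for 29 members in 41BB- cells (63.5% of all genes) and for 25 in 41BB+ cells (49.5% of all genes). Hnrnpll rose most in each population. In 41BB- cells the next largest rises were those of Hnrnpab (2.37 ± 0.12), Srsf1 (2.22 ± 0.11), Srsf2 (1.87 ± 0.15), Srsf9 (1.61 ± 0.18) and Hnrnpu (1.51 ± 0.09). Genes that rose in 41BB- cells and had log2 fold changes near 0 in 41BB+ cells included Hnrnpd, at 1.14 ± 0.10 against 0.06 ± 0.10, and Hnrnpdl, its paralogue, at 1.04 ± 0.12 against -0.04 ± 0.12. The interaction test called the difference for both, at -1.08 ± 0.14 (adjusted p = 8.89e-07) and -1.08 ± 0.17 (adjusted p = 2.13e-05). Over the whole group 18 interactions were negative, meaning less rise in 41BB+ cells, and 1 was positive, where 23.0% of all genes passed (14.0% negative and 9.03% positive). Each of these comparisons shares its libraries with the 0 h and 24 h population comparisons, so they are not separate evidence. One 24 h library, 41BB+ library 2, held more myeloid transcript than the others, 78.7 CPM over 8 markers against at most 12.3 CPM elsewhere. In that library 6 of the 8 markers had counts, with Lyz2 the highest at 45.9 CPM, and Itgam and Cd14 were at 0. Without this library 21 members were called in 41BB+ cells rather than 22.

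From 24 h to 72 h, 27 genes fell and 0 rose in 41BB+ cells, with a median of -0.93, where 52.5% of all genes passed (26.3% down). In 41BB- cells 18 fell and 2 rose, with a median of -0.34, where 40.8% of all genes passed (18.2% down). All 18 that fell in 41BB- cells were among the 27. The share of all genes that fell in both was not counted and cannot exceed the 18.2% that fell in 41BB- cells. The libraries of 24 h and 72 h did not overlap for 28 members in 41BB+ cells (58.4% of all genes) and for 24 in 41BB- cells (51.6% of all genes). The 2 that rose were Hnrnpul1 (0.60, adjusted p = 0.000109) and Hnrnpa3 (0.40, adjusted p = 0.0247), and the second was lost without 24 h library 1 or 3 (adjusted p = 0.141 and 0.199) or any 72 h library of 41BB- cells (0.0534 to 0.18). Hnrnpab fell by 2.34 in 41BB+ and by 1.10 in 41BB- cells, and Hnrnpa1 fell by 2.18 and by 1.32 on the log2 scale. Hnrnpa2b1, a splicing repressor that also sorts RNA into vesicles, fell by 0.64 ± 0.09 in 41BB+ cells (adjusted p = 8.14e-07). Its log2 fold change in 41BB- cells was positive, at 0.07 ± 0.09, and did not pass (adjusted p = 0.552). The interaction over this interval was negative for 19 genes, 17 Hnrnp and 2 Srsf (Srsf1 and Srsf2), and positive for 0, where 17.5% of all genes passed (11.4% negative and 6.10% positive).

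Set against the unstimulated cells, 72 h left the populations on opposite sides. In 41BB+ cells 22 genes were below and 4 above their 0 h level, where 46.7% of all genes passed (23.4% below and 23.4% above). The 22, and the 30 members without overlap below, include Srsf12, which met the low-count filter mainly through its 41BB+ libraries of 0 h. Without that filter Srsf12 did not pass (adjusted p = 0.173). In 41BB- cells 24 genes were above and 1 below, where 47.9% of all genes passed (26.8% above and 21.1% below). The libraries of 0 h and 72 h did not overlap for 30 members in 41BB+ cells (54.3% of all genes) and for 23 in 41BB- cells (57.0% of all genes). Of the 22 and the 24, 16 genes were in both counts, among them Srsf1, Srsf2, Srsf3, Srsf10, Hnrnpab, Hnrnpa2b1, Hnrnpd, Hnrnpk, Hnrnpm and Hnrnpu. Of all genes tested, 6.69% were in both counts. Among these 16 members, the calls of Srsf9 and Hnrnph2 in 41BB+ cells were lost without 1 library (adjusted p up to 0.351 and 0.348). So was that of Hnrnpf in 41BB- cells (up to 0.218). Outside the 16, Hnrnph1 and Hnrnpa3 in 41BB- cells also lost theirs (up to 0.11 and 0.0793). Hnrnph3, Hnrnpll, Hnrnpul1 and Srsf4 were above their 0 h level in both populations, and Srsf5 was below it in both. Of these, the call of Hnrnph3 in 41BB- cells was lost without 41BB- library 1 of 0 h (adjusted p = 0.155), library 3 of 0 h (0.0883) or library 1 of 72 h (0.191). With the experiment number as a block, Srsf9 and Srsf12 in 41BB+ cells (adjusted p = 0.0604 and 0.0588) and Hnrnpf in 41BB- cells (adjusted p = 0.0572) no longer passed, and Hnrnph1 in 41BB+ cells did (log2 fold change -0.27, adjusted p = 0.0486). In the 24 h against 0 h comparison of 41BB+ cells the block added Srsf7 (adjusted p = 0.0351).

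**Figure D3:**
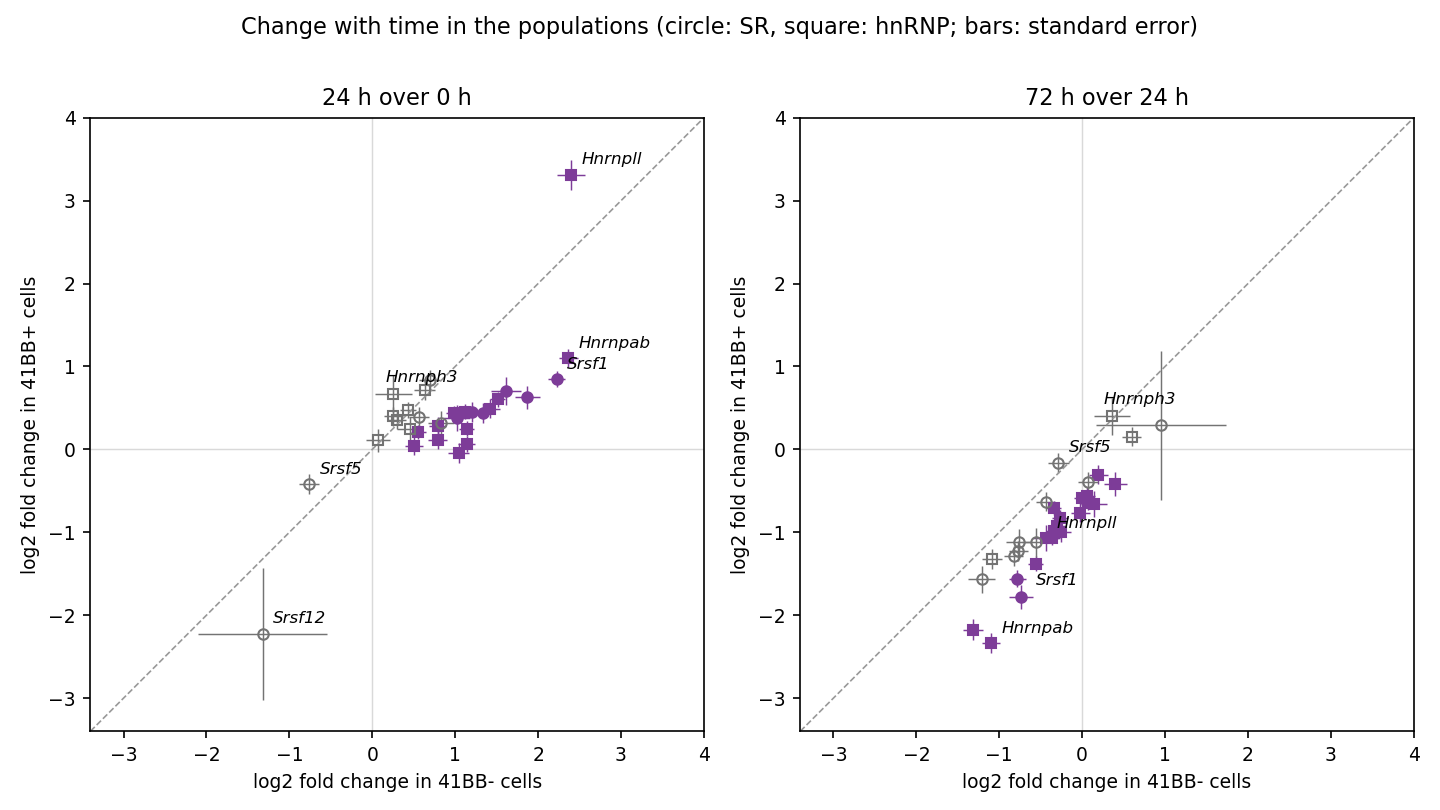
Log2 fold change in 41BB+ cells (y axis) against that in 41BB- cells (x axis) for 24 h over 0 h (left) and 72 h over 24 h (right), 1 point per gene with standard errors, circles for Srsf and squares for Hnrnp. Filled purple points passed the interaction test and open grey points did not; on the left most filled points lie below the dashed line of equal change with Hnrnpll above it, and on the right all 19 lie below it.

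Annotated isoforms and promoters gave what the name rule did not use. GENCODE M21 lists a transcript subject to nonsense-mediated decay for 19 of the 31 genes (61.29%), 9 of 11 Srsf and 10 of 20 Hnrnp, against 20.88% of all protein-coding genes. A retained-intron transcript is listed for 22 of them (70.97%) against 41.64%. The members have a median of 7 annotated transcripts against 3, and whether that accounts for these shares was not tested. Counts per gene cannot say which isoform changed. RefSeq windows of 250 bases before to 50 bases after the start (GRCm38.p6) were at hand for 29 of the 31 genes, 41 windows in all. The letters CCGGAA or TTCCGG, the core of sites of ETS factors read on either strand, were in 41.5% of these windows, in 28% of windows of all tested genes and in 14.9% of all windows. GGGCGG on either strand, a GC box, was in 82.9%, 61.4% and 35.7%, and CCAAT on either strand in 51.2%, 38% and 37.4%. CACGTG, an E-box that reads the same on both strands, was in 12.2%, 9.93% and 7.15%. TATAAA on either strand was in 9.76%, 6.93% and 13.6%. A match is a run of letters and not a measured site. The windows of Srsf1, Srsf2 and Hnrnpab, which had the largest rises at 24 h in 41BB- cells after Hnrnpll, are shown so that they can be read against that of Srsf5, which fell. The Srsf1 window is chr11:88047123-88047422 on the plus strand, that of Srsf2 is chr11:116853045-116853344 on the minus strand, that of Hnrnpab is chr11:51606832-51607131 on the minus strand, and that of Srsf5 is chr12:80945249-80945548 on the plus strand. All 4 hold the ETS core, in capitals, 1 copy each in Srsf1, Srsf2 and Hnrnpab and 2 copies in Srsf5.
Srsf1: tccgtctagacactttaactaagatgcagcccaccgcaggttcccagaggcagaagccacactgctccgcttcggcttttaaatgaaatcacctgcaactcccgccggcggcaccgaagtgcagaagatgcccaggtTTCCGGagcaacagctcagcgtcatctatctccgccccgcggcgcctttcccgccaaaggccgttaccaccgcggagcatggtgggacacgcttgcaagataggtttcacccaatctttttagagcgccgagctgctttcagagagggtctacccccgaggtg
Srsf2: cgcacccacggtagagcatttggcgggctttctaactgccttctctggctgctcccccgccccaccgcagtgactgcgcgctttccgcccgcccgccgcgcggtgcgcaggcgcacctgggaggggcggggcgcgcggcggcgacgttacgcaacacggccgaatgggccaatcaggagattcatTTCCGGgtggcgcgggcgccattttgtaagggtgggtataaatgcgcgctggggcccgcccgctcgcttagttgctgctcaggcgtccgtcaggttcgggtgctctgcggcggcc
Hnrnpab: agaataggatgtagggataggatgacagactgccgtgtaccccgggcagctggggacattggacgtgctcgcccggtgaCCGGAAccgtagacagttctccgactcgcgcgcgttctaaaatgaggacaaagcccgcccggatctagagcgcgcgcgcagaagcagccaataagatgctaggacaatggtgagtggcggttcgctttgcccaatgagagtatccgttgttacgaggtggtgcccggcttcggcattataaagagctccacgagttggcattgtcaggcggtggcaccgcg
Srsf5: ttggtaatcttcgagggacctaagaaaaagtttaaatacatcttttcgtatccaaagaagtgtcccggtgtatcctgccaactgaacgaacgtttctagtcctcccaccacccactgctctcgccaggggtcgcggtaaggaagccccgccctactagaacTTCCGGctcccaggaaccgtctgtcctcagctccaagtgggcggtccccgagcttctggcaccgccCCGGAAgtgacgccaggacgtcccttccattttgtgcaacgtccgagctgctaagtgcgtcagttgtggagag

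Hnrnpab (chr11:51600100-51606847, minus strand, GRCm38), an RNA-binding hnRNP of the A/B type, was the highest member per kilobase of exon in 4 of the 6 groups. At 0 h Hnrnpab stood at 651, 722 and 594 CPM in the 41BB+ libraries and at 219.7, 218 and 212 CPM in the 41BB- libraries. At 24 h the values were 1417, 1296 and 1363 CPM against 1198, 1181 and 1154 CPM. At 72 h they were 291, 276 and 204 CPM against 551, 436 and 498 CPM. The 41BB+ libraries were all above at 0 h and 24 h and all below at 72 h. The log2 fold change of 41BB+ over 41BB- was 1.58 ± 0.12 at 0 h (adjusted p = 8.79e-12), 0.32 ± 0.11 at 24 h (adjusted p = 0.138) and -0.91 ± 0.11 at 72 h (adjusted p = 1.56e-06). The rise over 24 h was smaller in 41BB+ cells by 1.26 ± 0.16, written as an interaction of -1.26 (adjusted p = 6.47e-07), and the later fall was steeper (interaction -1.24 ± 0.16, adjusted p = 3.32e-06).

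Srsf1 (chr11:88047373-88053755, plus strand), which binds exonic enhancers, shuttles to the cytoplasm and is needed for normal T cell function in mice, followed a like course. At 0 h Srsf1 stood at 341, 321 and 310.1 CPM in the 41BB+ libraries and at 109, 102 and 112 CPM in the 41BB- libraries. At 24 h it stood at 580.2, 523 and 585 CPM against 547, 524 and 521 CPM, and at 72 h at 164, 208 and 175 CPM against 293, 290.1 and 253 CPM. The groups overlapped at 24 h and at neither of the other times. The log2 fold change between populations was 1.57 ± 0.10 at 0 h (adjusted p = 2.15e-12) and -0.58 ± 0.10 at 72 h (adjusted p = 0.000159). Srsf1 had the most negative interaction of the group over the first interval, -1.38 ± 0.14 (adjusted p = 3.78e-08), and -0.78 ± 0.14 over the second (adjusted p = 0.000257).

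Srsf2 (chr11:116849901-116853094, minus strand), once called SC35 and a marker of nuclear speckles, was at 324, 328 and 291 CPM in 41BB+ and 117, 112 and 109 CPM in 41BB- libraries at 0 h. At 24 h the values were 475, 465 and 465 CPM against 449, 407 and 451 CPM, and at 72 h 161, 145 and 86.5 CPM against 274, 221 and 212 CPM. The 41BB+ group was the higher at 0 h and 24 h and the lower at 72 h, with no overlap, and its 72 h library 3 was well below the other two. The log2 fold changes were 1.47 ± 0.15 (adjusted p = 5.36e-09), 0.22 ± 0.14 (adjusted p = 0.592) and -0.82 ± 0.14 (adjusted p = 0.000171).

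Hnrnpa1 (chr15:103240432-103246692, plus strand) was at 465, 507 and 384 CPM in 41BB+ and 227, 226 and 203 CPM in 41BB- libraries at 0 h. At 24 h it was at 655, 572 and 614 CPM against 643, 627 and 583 CPM, and at 72 h at 133, 111 and 144 CPM against 187, 249 and 236 CPM. The groups overlapped at 24 h and at neither of the other times. The log2 fold change was 1.03 ± 0.12 at 0 h (adjusted p = 7.79e-08) and -0.76 ± 0.12 at 72 h (adjusted p = 7.06e-05). From 0 h to 72 h the log2 fold change was -1.68 ± 0.12 in 41BB+ cells (adjusted p = 6.74e-12) and 0.11 ± 0.12 in 41BB- cells (adjusted p = 0.494). The mouse genome holds processed copies of Hnrnpa1, and 2 annotated pseudogene rows with its name had 198 and 332 counts over all 18 libraries, so reads may have been shared among them.

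Hnrnpll (chr17:80029487-80062334, minus strand), the activation-induced regulator of CD45 exon skipping, was lower in 41BB+ cells at 0 h. At 0 h Hnrnpll stood at 9.13, 12.0 and 11.8 CPM in 41BB+ and 15.2, 24.3 and 19 CPM in 41BB- libraries, from 31 to 75 counts each. At 24 h it stood at 96.7, 108 and 113 CPM against 112, 108 and 105 CPM, and at 72 h at 53.2, 52.4 and 38.8 CPM against 69.8, 77.6 and 69.1 CPM. The 41BB+ libraries were the lower ones at 0 h and 72 h, and the groups overlapped at 24 h. The log2 fold change was -0.83 ± 0.20 at 0 h (adjusted p = 0.00141) and -0.55 ± 0.16 at 72 h (adjusted p = 0.0133). That at 72 h was lost without 41BB+ library 3 (adjusted p = 0.147), without 41BB- library 2 (adjusted p = 0.105) and in a fit of only the compared groups (adjusted p = 0.0693). The 24 h rise was 9.94-fold in 41BB+ cells (log2 3.31 ± 0.18, adjusted p = 2.61e-14) and 5.26-fold in 41BB- cells (2.40 ± 0.17, adjusted p = 1.88e-12), and the interaction of 0.92 ± 0.25 was the positive one (adjusted p = 0.00772).

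Hnrnpl (chr7:28808541-28822266, plus strand), the constitutive regulator of the same CD45 exons, rose at 24 h in both populations. At 0 h it was at 299.6, 284 and 307 CPM in 41BB+ and 269, 249 and 249.7 CPM in 41BB- libraries. At 24 h the values were 431, 375 and 388 CPM against 358, 379.7 and 351 CPM, and at 72 h 260.4, 255 and 241 CPM against 349, 310.1 and 320.1 CPM. The groups overlapped at 24 h and at neither of the other times. The log2 fold change was 0.20 ± 0.10 at 0 h (adjusted p = 0.0959) and -0.34 ± 0.10 at 72 h (adjusted p = 0.0117). The 72 h call was lost without 41BB+ library 1, 2 or 3 (adjusted p = 0.0565, 0.0845 and 0.097), without 41BB- library 1 or 3 (0.155 and 0.077) and in a fit of only the compared groups (0.118). From 24 h to 72 h Hnrnpl fell by 0.59 ± 0.10 in 41BB+ cells, against 0.00 ± 0.09 in 41BB- cells, and the interaction was -0.58 ± 0.13 (adjusted p = 0.00238). Counts per gene do not show which CD45 exons were used, and splicing was not measured here.

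Srsf5 (chr12:80945504-80950507, plus strand), known from rat liver as an insulin-induced SR protein, was lower after stimulation in culture than at 0 h. At 0 h Srsf5 stood at 241, 209.7 and 233 CPM in 41BB+ and 319, 293 and 222 CPM in 41BB- libraries, so the groups overlapped. At 24 h it stood at 157, 175 and 159.8 CPM against 178, 169 and 172 CPM, and at 72 h at 142, 156 and 122 CPM against 133, 133 and 118 CPM. The 0 h log2 fold change of -0.30 ± 0.12 (adjusted p = 0.047) was lost without 41BB+ library 1, 2 or 3 (adjusted p = 0.0576, 0.143 and 0.0587) and without 41BB- library 1 or 2 (0.217 and 0.122). From 0 h to 24 h Srsf5 fell by 0.76 ± 0.12 in 41BB- cells (adjusted p = 4.26e-06). In 41BB+ cells it fell by 0.42 ± 0.12 (adjusted p = 0.00735), a call that was lost without library 1 or 3 of 0 h (adjusted p = 0.0545 and 0.059) or of 24 h (0.0621 and 0.0588). The interaction was 0.34 ± 0.17 (adjusted p = 0.165). At 72 h the level was below that at 0 h by 1.05 ± 0.12 in 41BB- cells (adjusted p = 4.14e-08) and by 0.58 ± 0.12 in 41BB+ cells (adjusted p = 0.000227).

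**Figure D4:**
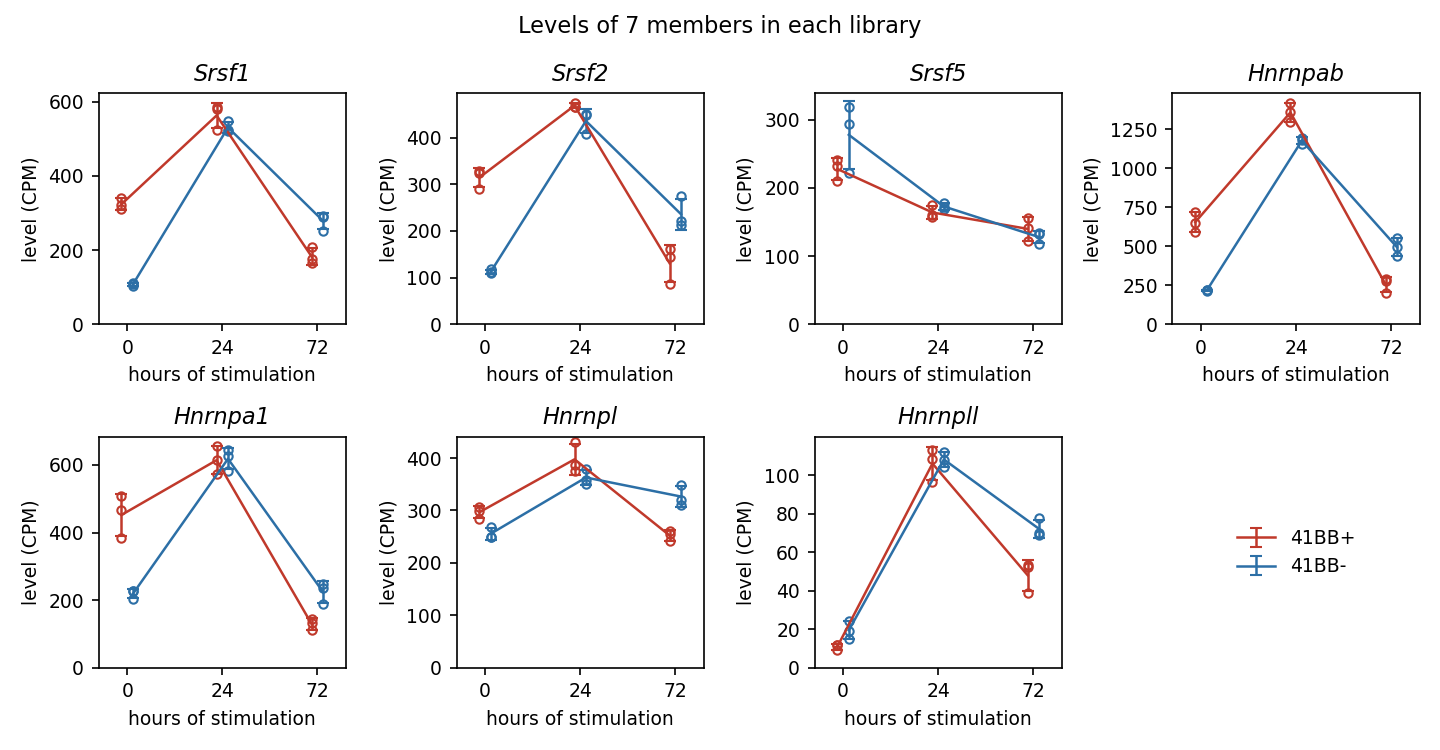
Level in CPM (y axis, from 0) of 7 genes against hours of stimulation. Circles are libraries, lines join group means and bars are the SD of 3 libraries; 6 genes rise by 24 h and fall by 72 h, Srsf5 has its highest mean at 0 h and its lowest at 72 h, and the 41BB+ line of Srsf1, Srsf2, Hnrnpab and Hnrnpa1 starts above and ends below the 41BB- line.

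Among the other SR genes, Srsf3, Srsf7 and Srsf10 had their highest means at 24 h in both populations. Srsf3, the smallest SR protein and an adaptor for mRNA export, stood at 313, 279 and 269 CPM in 41BB+ and 188, 158 and 134 CPM in 41BB- libraries at 0 h. At 24 h its values were 371, 384 and 377 CPM against 361, 390.1 and 418 CPM, and at 72 h 169.8, 161 and 131 CPM against 235, 187 and 197 CPM. The 41BB+ libraries were all above at 0 h, overlapped at 24 h and were all below at 72 h. Srsf10, which works as a repressor when its tail is dephosphorylated, had means of 174 ± 8.14 and 93.1 ± 12.5 CPM at 0 h and of 89.3 ± 12.9 and 126 ± 9.19 CPM at 72 h in 41BB+ and 41BB- cells (SD, n = 3). Srsf7, a zinc-knuckle SR protein, had means of 199 ± 13.5 and 130.1 ± 37.3 CPM at 0 h, and at 72 h its difference of -0.39 ± 0.17 did not pass (adjusted p = 0.11) but did with the experiment number as a block within time (adjusted p = 0.0251). Srsf6 differed at 0 h, with 0.69 ± 0.16 (adjusted p = 0.000907) against -0.18 ± 0.16 at 72 h (adjusted p = 0.482), and the difference between those times was not tested. Srsf4 did not pass at 0 h (0.01 ± 0.12, adjusted p = 0.955), at means of 95.6 ± 6.26 and 94.1 ± 6.57 CPM, and stood at 120.0 ± 18.3 and 151 ± 8.58 CPM at 72 h (-0.30 ± 0.12, adjusted p = 0.0831, and 0.0472 with the block within time).

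Most of the other Hnrnp genes had the same order. Hnrnpa2b1 stood at 1038, 1048 and 970.0 CPM in 41BB+ and 500.4, 484 and 487 CPM in 41BB- libraries at 0 h, and at 794, 714 and 635 CPM against 1032, 1135 and 1079 CPM at 72 h. The groups did not overlap at either time. Hnrnpk, which binds C-rich RNA, had means of 656 ± 8.97 and 379 ± 33.7 CPM at 0 h and of 429.9 ± 40.4 and 581 ± 32.0 CPM at 72 h. Hnrnpm had 492 ± 34.6 and 273 ± 14.8 CPM, then 297 ± 20.8 and 441 ± 15.5 CPM. Hnrnpc, which binds uridine runs and keeps cryptic exons out of mRNA, had 392.3 ± 17.9 and 242 ± 15.8 CPM, then 222 ± 29.7 and 314 ± 20.5 CPM. Each of these thus stood higher in 41BB+ cells at 0 h and lower at 72 h. Hnrnpf, which was higher at 0 h (0.50 ± 0.09, adjusted p = 4e-05), had -0.21 ± 0.09 at 72 h (adjusted p = 0.0904).

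A smaller set of Hnrnp genes was called at 72 h without a call at 0 h: Hnrnpa3, Hnrnph1, Hnrnph2, Hnrnpl and Hnrnpul2. Each of these 72 h calls was lost on leaving out at least 1 library. The adjusted p then reached 0.0955 for Hnrnpa3, 0.275 for Hnrnph1 and 0.065 for Hnrnph2. For Hnrnpl and Hnrnpul2 it reached 0.155 and 0.313. At 0 h Hnrnph2 passed without 41BB+ library 3 (adjusted p = 0.0439). Hnrnph2, which binds G runs like Hnrnph1, had means of 54.3 ± 9.33 and 41.7 ± 1.71 CPM at 0 h (0.37 ± 0.16, adjusted p = 0.073) and of 37.3 ± 6.81 and 60.1 ± 2.88 CPM at 72 h (-0.65 ± 0.16, adjusted p = 0.00419). Hnrnpa3 had 138 ± 14.1 and 116 ± 21.2 CPM, then 102 ± 14.7 and 153 ± 13.3 CPM (-0.54 ± 0.14, adjusted p = 0.00782). Hnrnph1 passed at 0 h with the experiment number as a block within time (0.27, adjusted p = 0.0206). Hnrnph3 and Hnrnpul1 had means that went up at both steps. Hnrnpul1 went from 276 ± 19.8 to 351 ± 34.2 and 373 ± 24.3 CPM in 41BB+ cells and from 257 ± 42.9 to 323 ± 24.8 and 442 ± 24.3 CPM in 41BB- cells. With the block within time the interaction of 24 h to 72 h was also past the threshold for Srsf3, Srsf4, Srsf10 and Hnrnpul1 (adjusted p = 0.0153, 0.034, 0.028 and 0.0211), and that of 0 h to 24 h for Srsf6 (0.0165).

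The other members ranged widely in level. Per kilobase of exon, Hnrnpab, Hnrnpf and Hnrnpa2b1 were the 3 highest in both populations at 0 h and 72 h and among the 4 highest at 24 h, from 74.5 to 488.5 CPM per kilobase. Hnrnpf, a binder of G-rich RNA, was the highest in 41BB- cells at 0 h (149 CPM per kilobase) and in 41BB+ cells at 72 h (138 CPM per kilobase). Srsf12 was near the detection limit, with 1 to 15 counts in a library. It reached 10 counts in all 3 of the 41BB+ libraries of 0 h and in 1 library each of 41BB- cells at 0 h and 72 h, so it met the low-count filter mainly through that group, and its calls against it are a description. The difference in 41BB+ cells between 11, 12 and 15 counts at 0 h and 1, 2 and 5 counts at 24 h passed the test (adjusted p = 0.0305) and did not pass without the filter on low counts (0.136) or without any 1 of 5 of the 6 libraries (0.0629 to 0.138). The highest group mean was at 24 h for 25 of the 31 genes in each population. In 41BB+ cells the exceptions were Hnrnpdl, Hnrnpr, Srsf5 and Srsf12, highest at 0 h, and Hnrnph3 and Hnrnpul1, highest at 72 h. For Hnrnph3, Rufy2 on the opposite strand overlaps the gene and had 2149 counts against 2055, and the labels used here do not state a strand setting for the counting. Other overlapping genes on the opposite strand had fewer counts than the member, such as Mettl23 with 1694 against 18506 for Srsf2 and Phykpl with 1344 against 45580 for Hnrnpab. On the same strand, March2 shares 1169 exon bases with Hnrnpm and had 1772 counts against 30302. AC129217.1 shares 360 exon bases with Hnrnpul2 and had 142 counts against 10037.

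The lists of partner genes followed the same course in part. Of 10 genes of the Sm ring and the U1 snRNP, which recognises the start of an intron, 9 exceeded their 41BB- level in 41BB+ cells at 0 h and 6 were lower at 72 h, with medians of 1.199 and -0.52. Snrpa, a protein of the U1 snRNP, led at 0 h with 1.72 ± 0.14 (adjusted p = 6.64e-11). Of 18 genes of U2AF and the U2 snRNP, which bind near the end of the intron, 15 were higher at 0 h and 11 lower at 72 h, with medians of 0.78 and -0.48, and Sf3b3 had 1.07 ± 0.10 at 0 h (adjusted p = 6.76e-10). Of 25 genes of the tri-snRNP and the Prp19 complex, which form the active spliceosome, 18 were higher and then 12 lower, with medians of 0.62 and -0.48, led at 0 h by the GTPase gene Eftud2 at 1.49 ± 0.11 (adjusted p = 9.99e-12). Of 15 genes of the exon junction complex and mRNA export, 11 were higher and then 9 lower, with medians of 0.98 and -0.56, the export helicase gene Ddx39 standing at 2.04 ± 0.16 (adjusted p = 2.9e-11) and Rbm8a at 1.70 ± 0.16 at 0 h. In none of these 4 lists was a gene called at 24 h, and 0 genes of them moved the other way at 0 h or 72 h. At 24 h against 0 h in 41BB- cells these lists had 10 of 10, 17 of 18, 22 of 25 and 13 of 15 genes up, and 1 U2-list gene down. Of all genes, 22.2% were higher at 0 h, 2.75% were called at 24 h and 12.2% were lower at 72 h. From 0 h to 24 h in 41BB- cells 29.0% of all genes rose and 27.6% fell. The lists were chosen with results of these data known, and their counts are a description.

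Of 30 tested genes of other hnRNP-type and tissue splicing regulators, 16 were higher and 7 lower in 41BB+ cells at 0 h. Fubp1 (1.37 ± 0.11), Syncrip (1.30 ± 0.11) and Pcbp1 (1.38 ± 0.13) led the higher side, while the muscleblind gene Mbnl2 at -1.04 and the neuronal PTB paralogue Ptbp2 at -0.66 were on the lower side. At 72 h 9 genes of that list were lower and 3 higher, and Ptbp1 was the 1 gene called at 24 h (0.35 ± 0.09, adjusted p = 0.0373). Among 23 SR-related genes, 9 were higher at 0 h, with Rnps1 at 1.13 ± 0.12 (adjusted p = 6.05e-09) and Ppig at 0.91 ± 0.11, and 1 was higher and 1 lower at 72 h. Of 12 tested genes for kinases and phosphatases of SR proteins, 3 were higher and 5 lower at 0 h. The lower ones were the kinases Clk1 (-1.58 ± 0.16, adjusted p = 4.61e-09), Srpk2 (-0.93 ± 0.15), Dyrk1a (-0.70 ± 0.12), Clk3 and Clk4. In 41BB- cells Clk1 fell by 1.90 ± 0.16 from 0 h to 24 h (adjusted p = 6.1e-11) and Srpk2 fell by 1.41 ± 0.16 (adjusted p = 1.04e-08). At 72 h Clk1 and Clk4 were the 2 of this list called and both were higher in 41BB+ cells (0.84 and 0.60). Of 10 genes of nonsense-mediated decay, 3 were higher at 0 h (Upf1 at 0.76 ± 0.13, Upf3b and Smg5). At 0 h 2 were lower (Smg1 and Smg9), and Smg9 was higher at 72 h. Of all genes, 22.2% were higher and 17.3% lower at 0 h, and 6.71% were higher and 12.2% lower at 72 h. The nonsense-mediated decay counts at 0 h, and that of the kinase and phosphatase genes higher at 0 h, were near these shares. So were the counts of other hnRNP-type genes lower at 0 h, and of hnRNP-type and nonsense-mediated decay genes higher at 72 h. Those of the SR-related genes at 72 h were below these shares. At 24 h 2.75% of all genes were called, and the 1 of 30 hnRNP-type genes was near that share. The 3 import receptor genes Tnpo1, Tnpo2 and Tnpo3, of which the last carries SR proteins into the nucleus, exceeded 41BB- cells at 0 h by 0.33 to 0.52, and 0 were called at 72 h.

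In all libraries but 41BB+ library 2 of 24 h, named above, the summed level was at most 12.3 CPM for 8 myeloid markers and 3.72 CPM for 6 NK markers, and that library had 8.75 CPM for the NK markers. The 6 erythroid markers summed to at most 6.58 CPM in any library. The 4 CD4 helper markers summed to 3.24 to 6.29 CPM in 41BB+ and 1.81 to 3.10 CPM in 41BB- libraries at 0 h. At 72 h they summed to 30.2 to 54.1 CPM, and the highest of them in each library was Zbtb7b, at 19.5 to 45.9 CPM. Of the 4 markers, Foxp3 was higher in 41BB+ cells at 0 h (2.40 ± 0.83, adjusted p = 0.0214) and at 72 h (1.84 ± 0.55, adjusted p = 0.0178). At 0 h Foxp3 reached at most 5.15 CPM in a library. Cd40lg was lower in 41BB+ cells at 72 h (-2.12 ± 0.70, adjusted p = 0.0326). The median log2 fold change of the 3 tested genes of that list was 0.98 at 0 h and -0.84 at 72 h. The part of these cells in the differences of the splicing factor genes was not tested.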

How the data were processed

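RNA of 18 libraries, 3 for each of the 6 groups, was made into stranded total RNA libraries (SMARTer kit), per the labels' protocols. The deposited counts are whole numbers of reads per gene made by the authors. The submitters' processing notes name FastQC 0.11.9, Trimmomatic 0.38, HISAT2 2.2.1, featureCounts and GRCm38. No source used here gives the strand setting, the annotation release or how multi-matching reads were counted. Reads of close copies (Hnrnpa1, Hnrnpa3 and Hnrnpa2b1 with their pseudogenes, Hnrnph1 with Hnrnph2) and of overlapping genes may therefore be shared.

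Counts were tested with edgeR 4.0.16 in R 4.3.3 (TMM, filterByExpr with a minimum count of 10 and a minimum total of 15, quasi-likelihood F-test, robust) in 1 fit of all 18 libraries with a mean for each group. A standard error was taken as the absolute log2 fold change over the square root of F. Benjamini-Hochberg adjustment covered the 13150 genes tested of 55487. CPM are counts per 1000000 counts of a library. The steps were tested on simulated data. Alternatives used DESeq2 1.42.0, limma 3.58.1 (voom), other scalings and filters, and left out each library. Sums and figures used Python 3.11.15 with matplotlib 3.10.9, numpy 2.4.6, pandas 2.3.3 and scipy 1.17.1. Replicates of a group differed by more than counting noise (chi-square per degree of freedom 4.56 to 8.9), and p-values measure the spread between these triplicates only.

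The titles number the experiments. Libraries of the same number and time were taken as paired only in the ratios within experiments and in the block alternatives. Over 12686 autosomal genes, deviations from group means correlated with a median r of 0.107 (9 pairs, 5 above 0.1) for the same time and number and of -0.0632 (18 pairs) for other numbers of that time. The main fit had no block, so its adjusted p-values do not use that pairing.

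The members, the gene lists and the tests were chosen with earlier results of these data known. Genes described with every library were the 3 steepest in each direction of the population and 24 h comparisons at a mean of at least 5 CPM, plus Hnrnpll, Hnrnpl, Srsf1 and Hnrnpa1. Lists named up to 3 genes with the smallest adjusted p at 0 h or at 24 h in 41BB- cells. Other genes of short counts, and Hnrnpu, Hnrnpd, Hnrnpdl, Hnrnpa2b1, Srsf3, Srsf11, Srsf12, Mbnl2, Ptbp2, Foxp3 and Cd40lg, were named after their values were seen, and Srsf3, Hnrnpu and Hnrnpa2b1 of these are also given by library. Promoter windows are from RefSeq (GRCm38.p6), and protein sequences were not used here. The result of 1 marker list is not reported here.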

Additional observations from a re-analysis of the deposited data

Results flagged for a closer look

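The change over time differed between the 41BB+ and 41BB- populations by edgeR's test of the interaction. This held for 19 genes from 0 h to 24 h and for 19 from 24 h to 72 h. Of all genes, 23.0% passed in the first interval (14.0% negative) and 17.5% in the second (11.4% negative). The value is the log2 fold change in 41BB+ cells minus that in 41BB- cells. It shares its libraries with the population comparisons, so it is not separate evidence. From 0 h to 24 h the Srsf genes had Srsf1 -1.38, Srsf10 -0.89, Srsf2 -1.24, Srsf3 -0.76, Srsf7 -0.63 and Srsf9 -0.92, all below 0, so these SR genes rose less in 41BB+ cells. The Hnrnp genes had Hnrnpa0 -0.68, Hnrnpa1 -0.93, Hnrnpa2b1 -0.89, Hnrnpab -1.26, Hnrnpc -0.50, Hnrnpd -1.08, Hnrnpdl -1.08, Hnrnpf -0.35, Hnrnpk -0.55, Hnrnpm -0.67, Hnrnpr -0.46 and Hnrnpu -0.91. Hnrnpll alone among the called genes had a value above 0, at 0.92.

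From 24 h to 72 h the Srsf genes had Srsf1 -0.78 and Srsf2 -1.04. The Hnrnp genes had Hnrnpa0 -0.74, Hnrnpa1 -0.86, Hnrnpa2b1 -0.72, Hnrnpa3 -0.82, Hnrnpab -1.24, Hnrnpc -0.65, Hnrnpd -0.56, Hnrnpf -0.36, Hnrnph1 -0.73, Hnrnph2 -0.80, Hnrnpk -0.62, Hnrnpl -0.58, Hnrnpll -0.64, Hnrnpm -0.70, Hnrnpr -0.61, Hnrnpu -0.82 and Hnrnpul2 -0.49. All 19 lay below 0, so that these genes fell more, or rose less, in 41BB+ cells. The intervals share their 24 h libraries. Calls lost without 1 library were those of Hnrnpf (adjusted p = 0.0579 to 0.144 where lost), Hnrnpr (0.0531 to 0.0875) and Srsf7 (0.0592 to 0.136) in the first interval, and of Hnrnpf (0.0878 to 0.216), Hnrnph2 (0.0521 to 0.0658), Hnrnpll (0.0524 to 0.182) and Hnrnpul2 (0.0559 to 0.166) in the second, all by edgeR.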

How the results depend on the processing

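Of 5291 values of single genes under the alternatives, 4973 stayed on their side of the threshold, 71 of them with a changed sign but past it in neither fit, 243 fell below it, 75 rose past it and 0 changed direction past it. At 24 h the count of genes that differ between populations was 0 by edgeR and 2 by DESeq2, 3 by limma voom, 3 with only the compared groups and 3 with the replicate block within each time. At 72 h the count of 21 was 12 with only the compared groups, and that over all genes went from 2485 of 13150 to 1791 of 11425. For the members, leaving out each library gave 12 to 19 calls at 72 h, 20 to 22 at 0 h and 0 at 24 h. The ranges were 18 to 22 and 26 to 28 for 24 h against 0 h in 41BB+ and 41BB- cells, 25 to 27 and 19 to 21 for 72 h against 24 h, 23 to 24 and 22 to 24 for 72 h against 0 h, and 16 to 18 and 15 to 18 for the interactions. Over all genes, 361 differed at 24 h, against 577 with the replicate block within time, 550 by limma voom and 491 by DESeq2. The count was 483 with only the compared groups and 181 to 261 on leaving out a library. The cause of these shifts was not tested.

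With the replicate block the counts were 22, 0 and 21 for the populations at 0, 24 and 72 h, and 18 for each interaction; besides the genes named in the report, it lost both Hnrnpf interactions (adjusted p = 0.0512 and 0.0504) and changed no other call. The block within time could not be fitted for contrasts between times in 1 population. Scaling by library totals moved the median of all genes by up to -0.148 (72 h against 24 h in 41BB- cells), over 0.1 in 4 of 11 comparisons, and no called gene changed direction. Depth limits Srsf12 and, at 0 h, Hnrnpll.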
